A study of Mus musculus with 6 samples.

Results

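The chromatin modifiers that Slug recruits, with partners from their complexes, were followed here through 10 genes. The study's introduction names the products of *Hdac1*, *Hdac2*, *Kdm1a*, *Ehmt2*, and *Ezh2* as recruited by Slug, and not those of the other genes. The 10 genes were *Ezh2*, *Eed*, and *Suz12* of Polycomb repressive complex 2, the histone deacetylases *Hdac1* and *Hdac2*, the scaffold *Sin3a*, the demethylase *Kdm1a* with its partner *Rcor1*, and the H3K9 methyltransferases *Ehmt1* and *Ehmt2*. A gene was taken where its symbol was the only one that the platform annotation gave for a row of the deposited table, and all 10 had 1 such row, among 21507 genes in all. Hypothalamic RNA of male mice was measured on 6 Affymetrix arrays. Of these, 3 were labeled *Slugfl/fl* (control, with floxed *Slug* and no *Cre*) and 3 were labeled *Slugfl/fl;LepRCre/Cre* (*ΔLepR*), with the same floxed alleles and *Cre* on both alleles of the leptin receptor gene. The labels give an age of 8 weeks, where the study's methods give an older one, and they call the *Cre* line CreERT2, where the methods describe a knockin in the *LepRb* 3′-UTR on a C57BL/6 background. *Cre* acts in LepRb-expressing cells only and the RNA is of the whole hypothalamus, so a difference in those cells is diluted, and fewer cells of a type cannot be told apart from less RNA per cell. The labels do not say how many mice an array holds, and the p-values measure only the spread between these arrays.

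Slug (*Snai2*) represses genes by gathering chromatin enzymes at the DNA it binds. Deacetylases and the H3K4 demethylase strip marks of active genes, and the H3K9 and H3K27 methyltransferases add marks of silent ones. The enzymes are not expressed for Slug alone, since many other repressors use the same complexes in neurons and glia. The comparison asks whether the RNA of this machinery differed between the groups. It does not measure the proteins, their recruitment, or the histone marks.

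None of the 10 modifiers passed the study's threshold between the labels. *Eed* had the largest difference, 1.24-fold higher in the arrays labeled *ΔLepR* at an unadjusted p of 0.0173, just under the limit on the fold. *Rcor1* had the largest difference in the other direction, with a ratio of 0.837. The log2 differences of *Kdm1a*, *Suz12*, *Hdac2*, *Ehmt1*, and *Ehmt2* ran from -0.053 for *Ehmt1* to 0.046 for *Ehmt2*. *Snai2* itself was 3.79, 4.23, and 4.23 in the arrays labeled *Slugfl/fl* and 10.36, 9.68, and 10.49 in those labeled *ΔLepR*. A deletion would lower *Snai2*, and the arrays labeled *ΔLepR* were higher, so each direction below follows the labels alone. Which part of *Snai2* its probes cover was not analysed here, and probes outside the deleted part would not check the deletion. The difference in *Snai2* was 68.2-fold (adjusted p = 1.56e-06, limma), and its cause was not tested. The mean of *Snai2* in the arrays labeled *Slugfl/fl*, 4.08, was below the median of all genes, 4.18.

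The threshold, a limma p under 0.05 before adjustment together with a rise of more than 25% or a ratio below 0.75, corresponds to log2 differences of 0.32 and -0.42. It called 0 of the 10 modifiers higher and 0 lower, against 1.44% and 0.577% of all genes, or 2.01% in either direction. By an unadjusted p under 0.05 alone, 1 of 10 passed, against 5.85% of all genes. After Benjamini-Hochberg adjustment over all genes 0 of 10 passed, with adjusted p from 0.839 to 0.995 (limma), against 0.0139% of all genes. The methods' t-test also called 0 of 10 at the same threshold, against 156 genes higher and 62 lower of 21507. The median log2 fold change of the modifiers was -0.0043, with 5 above 0 and 5 below it, and that of all genes was 0.0021. The median size of the difference, either way, was 0.094 for the modifiers and 0.088 for all genes. The 3 arrays of one label lay apart from the 3 of the other for 2 of 10 modifiers, against 11.5% of all genes.

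Slug is known to bind the E2 boxes CACCTG and CAGGTG, each the reverse complement of the other, so a search for both reads both strands. Promoter windows of 300 bases (250 before and 50 from the start) were found for 9 of the 10 genes in RefSeq sequences of GRCm38.p6, in 11 windows. *Ehmt1* was the only modifier of the 9 with an E2 box there, in 1 of 11 windows, against 20.2% of all 32851 windows of this length. The wider E-box pattern CANNTG, which includes both E2 boxes, was in 5 of 11 windows, against 72.3% of all windows, and the matches in both *Ehmt2* windows read CACGTG. A match describes letters, not binding. The *Ehmt1* window (chr2:24919560-24919859, minus strand) is shown because it holds the E2 box, in capitals, starting 138 bases before the start. The *Eed* window (chr7:89980927-89981226, minus strand) is shown because *Eed* had the largest difference, with its CANNTG matches in capitals, neither of which is an E2 box.
*Ehmt1* promoter: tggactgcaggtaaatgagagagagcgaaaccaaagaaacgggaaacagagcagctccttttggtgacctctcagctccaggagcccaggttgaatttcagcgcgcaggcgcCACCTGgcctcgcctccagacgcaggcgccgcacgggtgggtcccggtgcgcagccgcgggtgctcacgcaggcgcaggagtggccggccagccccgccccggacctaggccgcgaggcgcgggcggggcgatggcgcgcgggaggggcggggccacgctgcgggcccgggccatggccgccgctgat
*Eed* promoter: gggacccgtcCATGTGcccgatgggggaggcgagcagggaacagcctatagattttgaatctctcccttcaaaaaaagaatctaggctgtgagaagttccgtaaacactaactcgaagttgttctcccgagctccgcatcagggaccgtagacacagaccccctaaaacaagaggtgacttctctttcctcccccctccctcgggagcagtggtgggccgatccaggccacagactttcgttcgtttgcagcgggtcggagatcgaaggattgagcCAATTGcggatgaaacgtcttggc
*Ehmt1*, with the E2 box, had a log2 fold change of -0.05, and *Eed*, without one in this window, had 0.31. The other genes with windows, also without an E2 box there, ran from -0.26 for *Rcor1* to 0.22 for *Ezh2*. Whether a box goes with a difference was not tested.

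Polycomb repressive complex 2 methylates H3K27. *Eed* encodes the subunit that binds the methylated mark and stimulates the enzyme. On the log2 scale it was 5.06, 5.16, and 4.97 in the arrays labeled *Slugfl/fl* and 5.28, 5.54, and 5.31 in those labeled *ΔLepR*. All 3 arrays labeled *ΔLepR* were above all 3 others, with a gap of 0.12 between the nearest arrays. The means were 5.06 ± 0.10 and 5.37 ± 0.14 (SD, n = 3 each). The log2 difference was 0.31, with a 95% interval from 0.07 to 0.55 (SE 0.11, adjusted p = 0.839, limma), and 3.90% of all genes had a larger difference in either direction. The two-sided exact permutation test gave p = 0.10, the smallest that 3 arrays against 3 allow. Which array is left out sets the side of the fold limit. *Eed* passed the threshold without *Slugfl/fl* array 2 (0.36), *ΔLepR* array 1 (0.36), or *ΔLepR* array 3 (0.34), and its p was 0.0705 without *ΔLepR* array 2 (0.23) and 0.06 without *Slugfl/fl* array 3 (0.26).

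*Ezh2* encodes the methyltransferase of the complex. It was 4.60, 4.83, and 4.26 in the arrays labeled *Slugfl/fl* and 4.80, 4.78, and 4.78 in those labeled *ΔLepR*. The arrays labeled *ΔLepR* were nearly equal, with an SD of 0.011, and lay inside the range of the others, whose SD was 0.29. The log2 difference was 0.22, with a 95% interval from -0.09 to 0.53 (SE 0.14), against a pooled within-group SD of 0.20, and the exact permutation test gave p = 0.40. It was 0.07 without *Slugfl/fl* array 3, the lowest, and 0.36, past the threshold, without *Slugfl/fl* array 2, the highest. *Suz12*, the scaffold of the complex, was 6.59, 6.62, and 6.53 against 6.63, 6.49, and 6.66. Its groups overlapped, and the log2 difference was 0.01, with a 95% interval from -0.20 to 0.23 (SE 0.10). Of the 3 core genes *Eed* alone had an interval that left out 0, the intervals of all 3 overlapped, and the differences between the genes were not tested.

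Of 9 partner genes of the same complex, 0 passed the threshold, and 8 were above 0 with a median of 0.02. With the 3 core genes, 11 of 12 were above 0, where 50.7% of all genes were. The count takes in differences that are small against their SE, and it has no test because the genes were listed with earlier results known. *Rbbp7*, a histone-binding subunit, differed by 0.14 (SE 0.11), *Mtf2*, an accessory subunit, by 0.10 (SE 0.10), and *Ezh1*, the methyltransferase more common in resting cells, by 0.08 (SE 0.11). None of the 9 had groups that did not overlap. *Ezh1* lay at -0.01 without *ΔLepR* array 3.

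The deacetylases *Hdac1* and *Hdac2* encode close relatives that form the catalytic core of the Sin3, NuRD, and CoREST complexes. *Hdac1* was 6.34, 6.72, and 6.87 in the arrays labeled *Slugfl/fl* and 6.67, 6.88, and 6.91 in those labeled *ΔLepR*. The groups overlapped, and *Slugfl/fl* array 1 was the lowest of the 6. The log2 difference was 0.18, with a 95% interval from -0.14 to 0.50 (SE 0.14), and 0.02 without that array. *Hdac2* was 7.85, 7.67, and 7.53 against 7.77, 7.39, and 7.75. Its lowest value was in *ΔLepR* array 2, and its log2 difference was -0.04, with a 95% interval from -0.34 to 0.25 (SE 0.13). The interval of *Hdac2* kept within 25% either way, and that of *Hdac1* ran up to 1.41-fold. *Sin3a*, the scaffold that ties both deacetylases to DNA-binding repressors, was 6.56, 6.52, and 6.47 against 6.53, 6.23, and 6.38. Here 2 of 3 arrays labeled *ΔLepR* were below all the others, and the log2 difference was -0.14, with a 95% interval from -0.37 to 0.10 (SE 0.11). Without *ΔLepR* array 2 it was -0.06, and without *ΔLepR* array 1 it was -0.21.

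*Kdm1a* encodes LSD1, which removes methyl groups from H3K4 and is held in the CoREST complex by the product of *Rcor1*. *Kdm1a* was 6.44, 6.57, and 6.55 in the arrays labeled *Slugfl/fl* and 6.44, 6.56, and 6.50 in those labeled *ΔLepR*. This was the smallest within-group spread of the 10 genes, 0.065 as a pooled SD, against a median of 0.14 over all genes. Its log2 difference was -0.02, with a 95% interval from -0.23 to 0.19 (SE 0.09). *Rcor1* was 5.59, 5.49, and 5.69 against 5.48, 5.43, and 5.08. The groups did not overlap, but only by 0.0052 between *Slugfl/fl* array 2 and *ΔLepR* array 1. The log2 difference was -0.26, with a 95% interval from -0.53 to 0.02 (SE 0.12, two-sided exact permutation p = 0.10). It was -0.13 without *ΔLepR* array 3, which lay well below the rest, and -0.33 without *ΔLepR* array 1. *Kdm1a* and *Rcor1*, which act in 1 complex, thus had a narrow interval about 0 and a wide one mostly below it.

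*Ehmt2* encodes G9a and *Ehmt1* encodes its partner GLP, which together place the lower methylation states of H3K9. *Ehmt1* was 6.32, 6.38, and 6.33 in the arrays labeled *Slugfl/fl* and 6.44, 6.27, and 6.16 in those labeled *ΔLepR*. The arrays labeled *ΔLepR* lay on both sides of the others, and the log2 difference was -0.05, with a 95% interval from -0.28 to 0.18 (SE 0.10). *Ehmt2* was 6.45, 6.39, and 6.81 against 6.46, 6.80, and 6.53. Each group held 1 high array, *Slugfl/fl* array 3 and *ΔLepR* array 2, and the log2 difference was 0.05, with a 95% interval from -0.26 to 0.36 (SE 0.14). *Ehmt2* lies on chromosome 17. *Hdac1* and *Kdm1a* lie on chromosome 4, as does *Lepr*, which carries the *Cre*. *Lepr* was 4.04, 3.72, and 3.96 against 4.55, 4.16, and 4.42, with a log2 fold change of 0.47 (SE 0.13), past the unadjusted threshold (adjusted p = 0.743, limma). Its mean was 3.91 in the arrays labeled *Slugfl/fl*, below the median of all genes, 4.18, and 4.37 in the others.

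**Figure D1:**
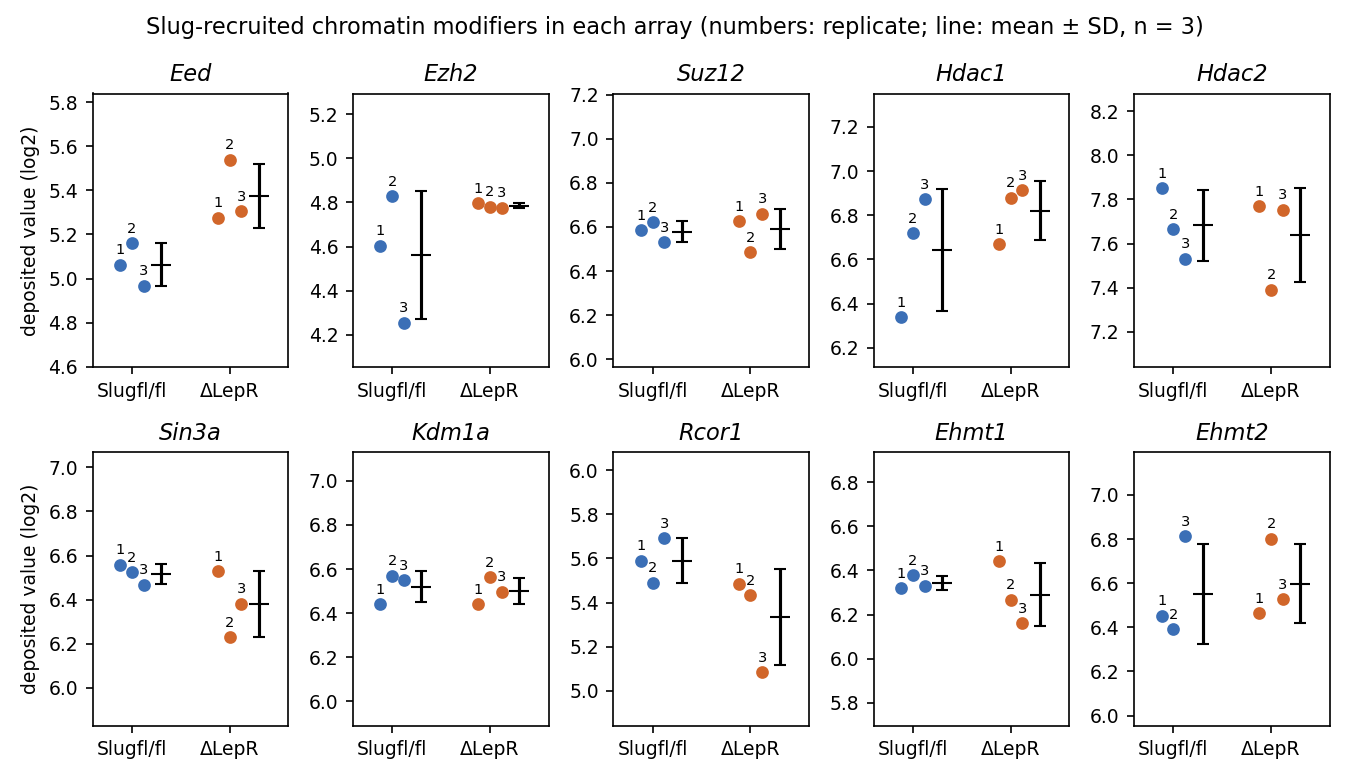
Deposited log2 value (vertical axis, of equal span in each panel) of the 10 modifiers in each array, by label, with replicate numbers and the mean ± SD (n = 3). *Eed* and *Rcor1* are the panels in which the groups do not overlap, and a single low array marks *Ezh2* (*Slugfl/fl* array 3), *Hdac1* (*Slugfl/fl* array 1), and *Rcor1* (*ΔLepR* array 3).

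The intervals set what these arrays could show. For 5 of 10 modifiers, *Hdac2*, *Kdm1a*, *Ehmt1*, *Suz12*, and *Sin3a*, the 95% confidence interval lay inside the limits of 25% lower and 25% higher, as it did for 52.6% of all genes. For *Eed*, *Ezh2*, *Hdac1*, and *Ehmt2* it reached past the upper limit, to 1.47-fold, 1.45-fold, 1.41-fold, and 1.28-fold. For *Rcor1* it reached past the lower limit, to a ratio of 0.690. For these 5 genes the intervals do not exclude a difference of threshold size. The pooled within-group SD of the modifiers had a median of 0.15, against 0.14 for all genes.

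**Figure D2:**
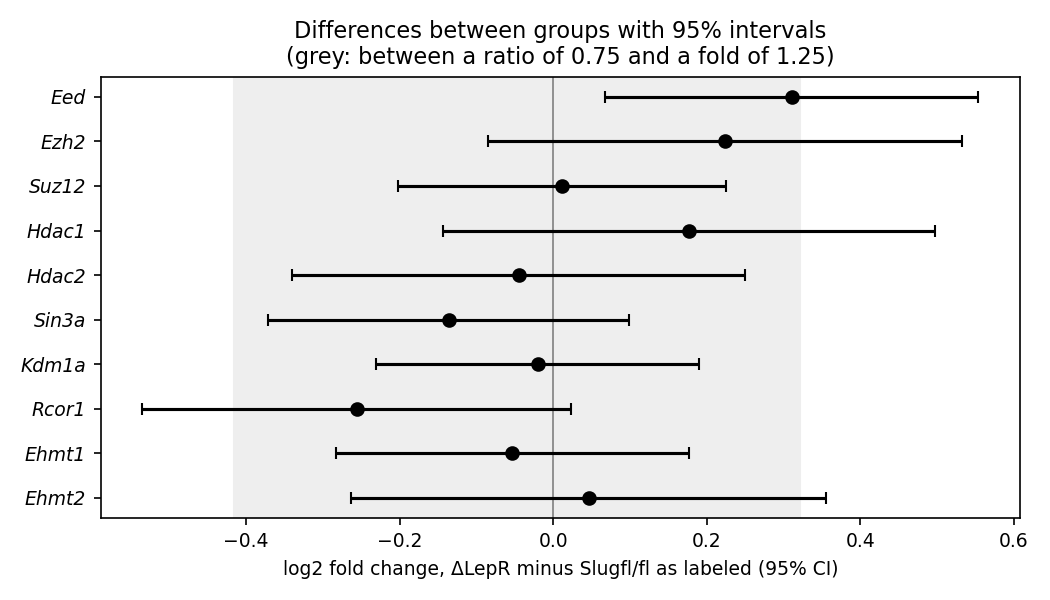
Log2 fold change of each modifier, *ΔLepR* minus *Slugfl/fl* as labeled (horizontal axis), with its 95% confidence interval from limma, and the span from 25% lower to 25% higher in grey. *Eed* alone has an interval that leaves out 0, and the intervals of 5 genes stay inside the grey span.

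The arrays were also compared one by one, as the difference of each value from that gene's mean over 6 arrays. No array held all modifiers on one side. The number above their own mean was 5, 7, and 6 of 10 in the arrays labeled *Slugfl/fl* and 7, 5, and 5 in those labeled *ΔLepR*. The median deviation of an array ran from -0.03 to 0.05. The 3 deepest deviations fell in different arrays and genes, -0.42 for *Ezh2* in *Slugfl/fl* array 3, -0.39 for *Hdac1* in *Slugfl/fl* array 1, and -0.38 for *Rcor1* in *ΔLepR* array 3. *ΔLepR* array 2 held the lowest value of 3 modifiers, *Hdac2*, *Sin3a*, and *Suz12*, and the highest of *Eed*.

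**Figure D3:**
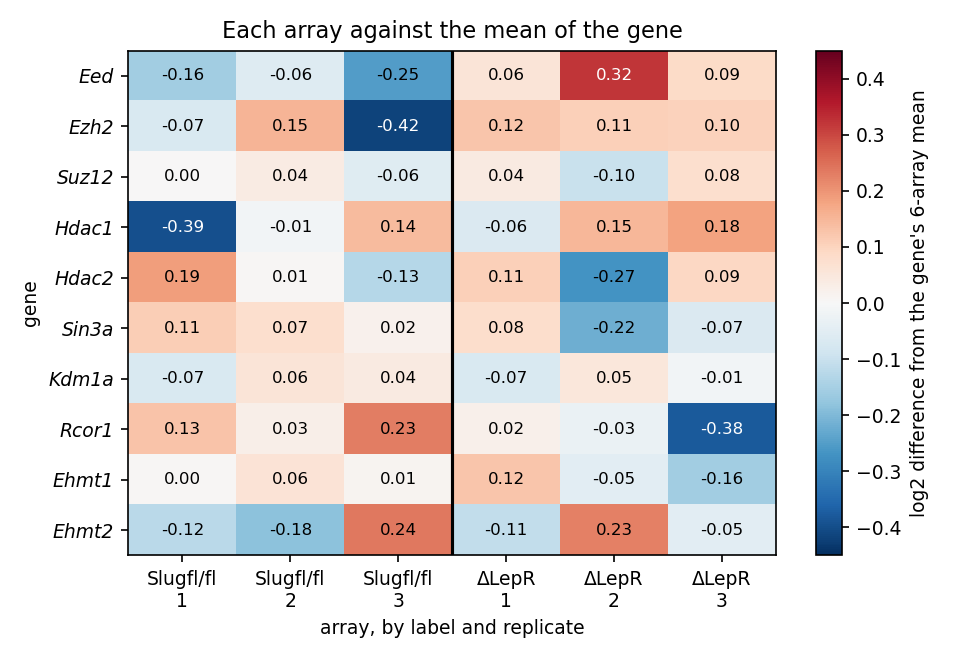
Difference of each array (columns, by label and replicate) from the gene's mean over 6 arrays, in log2 units, for the 10 modifiers (rows). Red and blue are mixed in every column, and *Eed* and *Rcor1* are the rows whose values are all higher or all lower on one side of the line.

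The modifiers were set beside 100 measured genes of the same machinery and of its opponents, in 9 lists. At the threshold 0 of 100 passed in limma, against 2.01% of all genes. With the methods' t-test 0 of 100 passed, against 156 genes higher and 62 lower of 21507. An unadjusted p under 0.05 (limma) was found for 2 of 100, *Kdm4b* and *Cbx8*, against 5.85% of all genes. The groups did not overlap for 14 of 100, 12 lower and 2 higher in the arrays labeled *ΔLepR*, against 5.56% and 5.91% of all genes. The median log2 fold change was -0.01.

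The enzymes that undo or oppose these marks had the lowest median, -0.09, with 12 of 16 below 0, where 50.7% of all genes were above 0. The groups did not overlap for 6 of 16 (37.5%), *Kdm4b*, *Kat2b*, *Phf8*, *Crebbp*, *Kmt2c*, and *Kmt2d*, lower in the arrays labeled *ΔLepR* in each. Over all genes 11.5% did not overlap in either direction. The gap between the nearest arrays was 0.24 for *Kdm4b*, 0.092 for *Kat2b*, and 0.044 for *Kmt2c*. It was only 0.011 for *Phf8*, 0.010 for *Kmt2d*, and 0.0061 for *Crebbp*. An unadjusted p under 0.05 (limma) was found for 1 of 16, against 5.85% of all genes. The 95% interval lay inside the fold limits for 11 of 16, against 52.6% of all genes. *Kdm4b*, which removes methyl groups from H3K9, was 5.42, 5.44, and 5.56 in the arrays labeled *Slugfl/fl* and 5.17, 5.06, and 5.13 in those labeled *ΔLepR*. Every array of one label was clear of the other, and the log2 difference was -0.35, with a 95% interval from -0.57 to -0.14 (SE 0.10, adjusted p = 0.743, limma). Its ratio of 0.783 missed the limit of 0.75. *Kat2b*, the acetyltransferase PCAF, was 5.77, 5.92, and 5.76 against 5.67, 5.64, and 5.49, with a log2 fold change of -0.22 (SE 0.10). Both genes lie on chromosome 17, and without that chromosome 4 of 14 did not overlap. The groups of the other modifiers and related genes on chromosome 17 overlapped, with differences on both sides of 0. Where along the chromosome these genes lie was not compared, so the overlap of the others does not describe the region of *Kdm4b* or *Kat2b*. A part of the chromosome in these values was not tested. *Phf8*, a demethylase of H3K9, differed by -0.15 (SE 0.10). *Crebbp*, which acetylates H3K27, differed by -0.14 (SE 0.10), and *Ep300*, its close relative, by -0.09 (SE 0.10). *Kmt2c* and *Kmt2d*, which methylate H3K4 at enhancers, differed by -0.10 (SE 0.09) and -0.16 (SE 0.12). The H3K27 demethylases *Kdm6a* and *Kdm6b*, which oppose *Ezh2*, differed by -0.04 (SE 0.10) and -0.16 (SE 0.12), with overlapping groups. None of the 16 passed the threshold.

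The lists of complex partners had no gene past it either, and their groups that did not overlap are to be read against the 11.5% of all genes. Counts below 0 are to be read beside the 50.7% of all genes that were above 0, and they take in differences that are small against their SE. Of 9 measured CoREST partners, 8 were below 0, with a median of -0.03. *Rcor2*, a relative of *Rcor1*, was at -0.23 (SE 0.12), *Rcor3* at -0.12 (SE 0.09), and *Rest*, a repressor of neuronal genes, at -0.16 (SE 0.16). *Rcor3* alone of the list had groups that did not overlap, and *Rest* lay at 0.01 without *ΔLepR* array 2. The means of *Rcor2* and *Rest* were below that of a typical gene under both labels. Of 11 measured Sin3 partners 9 were below 0, with a median of -0.04. *Sap30l* was at -0.19 (SE 0.10), *Ing1*, which reads methylated H3K4, at -0.18 (SE 0.10), and *Ing2* at -0.14 (SE 0.12). *Sap30l* and *Ing1* had groups that did not overlap. Among 10 NuRD subunits the values ran from -0.12 for *Chd4*, the remodeling ATPase, to 0.11 for *Gatad2a*, and *Chd3*, a relative of *Chd4*, was at 0.11. *Chd4* and *Gatad2b* (-0.05) had groups that did not overlap.
Among 15 PRC1 subunits, *Cbx8*, which reads methylated H3K27, differed by 0.30 (SE 0.11, unadjusted p = 0.0224, adjusted p = 0.839, limma). Its mean was below that of a typical gene under both labels, and it passed the threshold without *Slugfl/fl* array 1 (0.36), *Slugfl/fl* array 2 (0.35), or *ΔLepR* array 3 (0.34). *Cbx7*, another reader, differed by -0.23 (SE 0.11), and *Pcgf6* by -0.29 (SE 0.13), with a value past the threshold without *ΔLepR* array 1 (-0.44). Of 7 measured H3K9 methylation partners, *Setdb2* differed by 0.25 (SE 0.12), *Trim28*, a corepressor of zinc finger proteins, by 0.24 (SE 0.12), and *Cbx1*, which binds methylated H3K9, by -0.13 (SE 0.10). *Trim28* passed without *ΔLepR* array 3 (0.34) and *Setdb2* without *Slugfl/fl* array 2 (0.34). Among 15 other deacetylases differences ran from -0.15 to 0.14, and *Hdac3* differed by 0.12 (SE 0.10), *Hdac9* by -0.13 (SE 0.10), and *Sirt7* by 0.14 (SE 0.10). Of 8 other cofactors measured, *Limd1*, of a family that binds the SNAG domain, differed by 0.19 (SE 0.10), *Dnmt1*, the maintenance DNA methyltransferase, by -0.18 (SE 0.10), and *Kdm1b*, a relative of *Kdm1a*, by -0.09 (SE 0.10). *Dnmt1*, and *Sirt3* among the deacetylases, had groups that did not overlap.

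**Figure D4:**
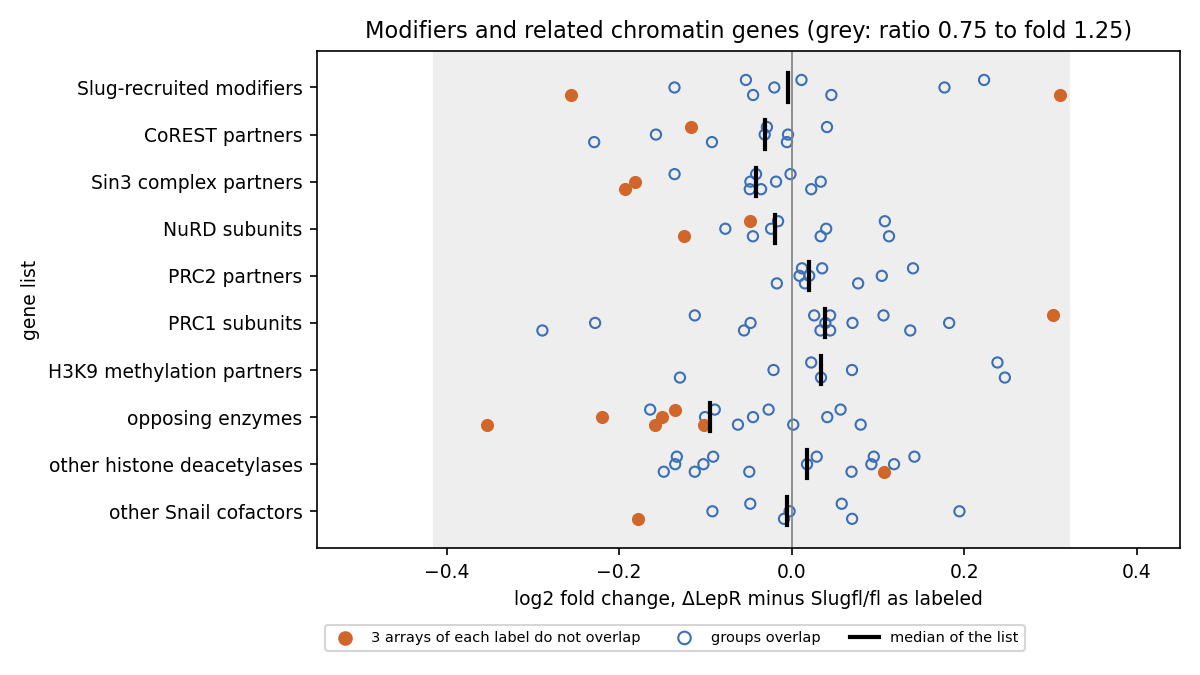
Log2 fold change of each gene, *ΔLepR* minus *Slugfl/fl* as labeled (horizontal axis), for the modifiers and 9 related lists (rows), with the median of each list as a bar and genes whose groups do not overlap filled. No point lies outside the grey span from 25% lower to 25% higher, and the filled points of the opposing enzymes are all left of 0.

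As a rough check of the tissue label, 7 of 8 hypothalamic markers, 2 of 4 markers of cortex, thalamus, and striatum, 0 of 4 of pituitary, and 0 of 3 of dividing cells were above the median of all genes in every array. Values of different probe sets are not on a common scale, so these counts do not establish the tissue. *Prl*, a pituitary hormone gene, was 5.16 in *ΔLepR* array 1 and between 2.60 and 3.01 in the other arrays. *Gh*, another, was 3.79 in that array and between 2.76 and 3.11 in the others. The other pituitary markers were not high there, with *Cga* at 2.54, the second lowest of 6 arrays, and *Tshb* at 3.88, the lowest. *Neurod6*, a cortical marker, passed the threshold as higher (0.34) with a low mean under both labels, and *Drd1* (0.18), *Tcf7l2* (0.08), and *Prkcd* (-0.11) of its list did not pass. *Avp*, a hypothalamic marker, passed the threshold as lower (-0.46), and the 8 measured hypothalamic markers had 4 above 0 and a median of 0.06, with *Oxt* at 0.23. Summed levels of some marker lists did not overlap between the labels, where 11.5% of all single genes did not. Such a sum follows its brightest markers most. Taken singly, the groups did not overlap for 0 of 3 astrocyte, 0 of 4 microglia, and 1 of 4 ependymal and tanycyte markers. On the log2 scale, 3 astrocyte markers summed to between 9.58 and 9.71 in the arrays labeled *Slugfl/fl* and 9.46 and 9.56 in the others, with 0 of 3 past the threshold. The 4 microglia markers summed to between 7.83 and 7.87 and between 7.71 and 7.81, with 0 of 4 past it and *Cx3cr1* (-0.20) and *P2ry12* (-0.14) on the other side of 0 from *Tmem119* (0.13) and *Csf1r* (0.05). The 4 ependymal and tanycyte markers summed to between 6.47 and 6.52 and between 6.20 and 6.26, with 1 of 4, *Ccdc153*, past it as lower (-0.58). *Foxj1* (0.15) and *Rax* (0.06) of that list were above 0, and *Col23a1* was at -0.14. Their part in the values above was not tested. Sums of oligodendrocyte, endothelial, and choroid plexus markers overlapped between the labels, as did those of 4 neuronal markers, between 12.59 and 12.63 and between 12.50 and 12.60.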

How the data were processed

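The authors deposited 1 table of 24663 rows over 6 arrays, taken as log2 because the values ran from 0.90 to 12.43. MAS5 is named in the submitters' processing notes without a role. How background, summarisation, normalization, and filtering were done is not given in the sources used here. Array medians were 4.04 to 4.07, and the values were not normalized again. The platform annotation gave 1 symbol to 21925 rows, several to 818, and none to 1920, and only the first were used, with the brightest row per gene. Groups were compared without covariates in limma 3.58.1 under R 4.3.3 (lmFit, eBayes), with Benjamini-Hochberg adjustment over 21507 genes, after a check on simulated data. Chromosomes came from the RefSeq table of GRCm38.p6. Detection above background was not analysed here, and having 6 arrays limits precision. Levels of different genes were set against each other only where a gene or marker is placed above or below the median of all genes. They were added together, off the log2 scale, only in the sums of marker lists, which weight each gene by its brightness. The modifiers and lists were chosen with earlier results of these data known. Named genes were the modifiers, *Snai2*, *Lepr*, and the 3 smallest p in each related list. *Crebbp*, *Kmt2c*, *Kmt2d*, *Ep300*, *Kdm6a*, *Kdm6b*, *Gatad2b*, *Sirt3*, *Avp*, *Oxt*, and the pituitary, cortical, thalamic, striatal, microglial, ependymal, and tanycyte markers were named after their values were seen. Alternatives were the methods' t-test, quantile normalization, array weights, an intensity trend and robust prior, row means, median centring, a filter on dim genes, a replicate block, a ratio under 0.8, a ratio of linear means, and each array left out.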

Additional observations from a re-analysis of the deposited data

How the results depend on the processing

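With all 6 arrays, 0 modifiers were called under each alternative run, and each modifier kept its direction. As each array was left out, 0 to 2 modifiers and 0 to 2 related genes were called higher, 0 to 1 related gene lower, and the modifiers' median lay between -0.015 and 0.011. Of all 21507 genes 309 were called higher and 124 lower, against 368 to 463 and 153 to 189 with an array left out. The counts were 156 and 62 with the methods' t-test, and 150 and 63 with 10574 dim genes left out. A ratio under 0.8 gave 268 lower genes, 1 of them a related gene (*Kdm4b*). At an adjusted p of 0.05 limma called 3 genes, 1 to 3 with an array left out, 6 with an intensity trend and robust prior, 5 with dim genes left out, and 0 with the methods' t-test. The differences of 7 named genes changed sign as arrays were left out, with ranges of -0.12 to 0.078 for *Hdac2*, -0.060 to 0.0092 for *Kdm1a*, -0.13 to 0.011 for *Ehmt1*, -0.056 to 0.18 for *Ehmt2*, -0.024 to 0.064 for *Suz12*, -0.32 to 0.015 for *Rest*, and -0.011 to 0.14 for *Ezh1*. The cause of these changes was not tested. Deviations of arrays with the same replicate number correlated at -0.0029, -0.0096, and -0.058 over all genes. That check would miss a pairing that affects few genes, so whether the numbers pair the arrays is not settled. With the replicate number as a block 1 gene passed the adjusted p and 0 modifiers were called. Without scanner files, signal over background could not be set for any gene.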
